A study of Mus musculus with 4 samples.

Results

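The genes described here are 8 genes used as marks of type 17 T cells: Il17a, Cd163l1, Il1r1, Maf, Blk, Actn2, Tmem176a and Tmem176b. They were taken by name from 16500 gene symbols and followed in Cd3-positive cells of 4 tissues. Their levels in macrophage-like and dendritic-like cells of the same libraries were added for Tmem176a and Tmem176b. CD45.2+ cells sorted from intraepithelial preparations of C57BL/6 mice without infection had been profiled by droplet single cell RNA sequencing (10x Genomics, 3′ ends). There was 1 library each of stomach, small intestine, cecum and colon, so all groups share strain, sort and infection status, and tissue, animal and library cannot be told apart. The labels give no age and no count of animals, and the protocol text, the same in every record, names colons only. Tissues here follow the tissue labels.

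A cell was called Cd3-positive with at least 2 unique molecular identifiers (UMIs, each counting 1 captured transcript) over Cd3d, Cd3e and Cd3g. That left 316 of 3197 stomach cells, 2538 of 3171 small intestinal, 3473 of 4244 cecal and 3384 of 3761 colonic cells, or 9711 of 14373 cells in all. Of the Cd3-positive cells, 53 (stomach), 1716 (small intestine), 526 (cecum) and 929 (colon) carried at least 1 UMI of Trdc, the constant region of the T cell receptor delta chain. The shares were 16.8%, 67.6%, 15.2% and 27.5% in that order of tissues, and after each cell was thinned to 1000 UMIs they were 10.8%, 54.1%, 11.9% and 20.8%. In B-like cells, which should lack Trdc, the share was 2.11% in stomach, 0.171% in cecum and 0 of 52 and 183 cells in small intestine and colon, limits of 5.77% and 1.64%. Trdc status is a transcript call and not a lineage: 94.3% to 99.3% of Trdc-positive cells also carried a Trac, Trbc1 or Trbc2 UMI. Cd3-positive cells of the 4 tissues had median depths of 2638, 2345, 1769 and 3025 UMIs, and 23 barcode sequences occurred in more than 1 library. In stomach only 202 of the 316 Cd3-positive cells (63.9%) lay in T-like clusters. Another 48 lay in the cluster named NK/ILC1-like, 25 in the ILC2-like, 21 in the mast-like and the other 20 in further clusters. In each of the other tissues at least 95.3% lay in T-like clusters. Levels are CPM (counts-per-million: UMIs of a gene summed over cells, scaled by all UMIs of those cells), with 95% exact Poisson intervals in parentheses that cover counting error only.

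Type 17 T cells make interleukin 17 cytokines and guard epithelial barriers. They include Th17 cells with an alpha beta receptor and innate-like gamma delta T cells that leave the thymus already set to make interleukin 17. Both respond to interleukin 1 and interleukin 23 made by macrophages and dendritic cells. Il17a encodes the cytokine itself. Cd163l1 encodes the scavenger receptor SCART1, a surface mark of interleukin 17 producing gamma delta T cells in mice. Il1r1 encodes the signalling receptor for interleukin 1, Maf the transcription factor c-MAF and Blk a Src family kinase first known from B cells and needed by interleukin 17 producing gamma delta T cells. Actn2 encodes alpha-actinin 2, a crosslinker of actin best known from muscle. Tmem176a and Tmem176b are a neighbouring pair of genes for membrane proteins, found in type 17 lymphocytes and in myeloid cells.

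In the annotation of build GRCm38.p6, Il17a (ENSMUSG00000025929.4) lies at chr1:20730905-20734496, Il1r1 (ENSMUSG00000026072.12) at chr1:40222480-40316201 and Cd163l1 (ENSMUSG00000025461.11) at chr7:140197218-140231145. Maf (ENSMUSG00000055435.6) lies at chr8:115703253-115706894, Blk (ENSMUSG00000014453.4) at chr14:63372837-63417187 and Actn2 (ENSMUSG00000052374.16) at chr13:12269426-12340732. Tmem176b (ENSMUSG00000029810.15) spans chr6:48833811-48845948 and Tmem176a (ENSMUSG00000023367.14) lies within that span on the other strand, at chr6:48841483-48845364. How the counting treated strand is not given in the sources used here, and whether UMIs of this overlapping pair were assigned to the wrong partner was not tested.

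Start regions of 300 bases (250 before to 50 after a RefSeq start site, GRCm38.p6) are shown for the cytokine, the interleukin 1 receptor and the overlapping pair. The window shown for Il17a and that shown for Il1r1 were picked because they hold a half-site named for the MAF family. Windows were found for 6 of the 8 genes. In the first, from the plus strand at chr1:20730655-20730954, capitals mark TGCTGA, the MAF half-site, which starts 123 bases before the start site. In the second, from the plus strand at chr1:40224830-40225129, capitals mark TGCTGA 132 bases before the start. In the third, from the plus strand at chr6:48841233-48841532, capitals mark the 208 bases (48841325 to 48841532) that are also in a start region of Tmem176b.
Il17a: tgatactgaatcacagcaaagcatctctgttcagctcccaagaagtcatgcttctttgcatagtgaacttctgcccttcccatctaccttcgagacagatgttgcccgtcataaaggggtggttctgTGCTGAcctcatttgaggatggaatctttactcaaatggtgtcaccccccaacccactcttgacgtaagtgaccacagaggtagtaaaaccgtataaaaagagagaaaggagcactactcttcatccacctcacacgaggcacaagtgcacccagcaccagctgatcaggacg
Il1r1: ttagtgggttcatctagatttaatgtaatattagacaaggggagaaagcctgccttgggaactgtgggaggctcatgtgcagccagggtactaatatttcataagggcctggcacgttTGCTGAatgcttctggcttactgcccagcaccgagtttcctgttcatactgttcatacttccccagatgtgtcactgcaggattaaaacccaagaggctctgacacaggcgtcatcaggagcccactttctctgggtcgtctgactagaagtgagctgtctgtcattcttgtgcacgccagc
Tmem176a: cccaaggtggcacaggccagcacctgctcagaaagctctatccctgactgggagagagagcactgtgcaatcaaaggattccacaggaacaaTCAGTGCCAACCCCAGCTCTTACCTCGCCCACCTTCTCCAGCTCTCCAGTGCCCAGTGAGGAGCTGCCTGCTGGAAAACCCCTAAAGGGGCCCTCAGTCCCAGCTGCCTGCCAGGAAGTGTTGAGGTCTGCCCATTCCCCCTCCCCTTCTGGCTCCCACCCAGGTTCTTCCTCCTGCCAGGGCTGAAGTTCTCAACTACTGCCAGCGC
TGCTGA, searched on both strands, occurred in 19.5% of 32851 mouse start regions of this length. The Tmem176a start site lies 109 bases from that of Tmem176b used here, and the pair points in opposite directions, so the overlap in capitals is common to both. No other window of these genes held TGCTGA, among them another Il1r1 window and all those of Cd163l1, Actn2, Tmem176a and Tmem176b. These matches describe the letters only and say nothing of binding.

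Il17a UMIs came almost wholly from Cd3-positive cells, which held 139 of the 140 in the series, and from very few of them. The gene was listed in the stomach and cecum matrices and not among the listed genes of small intestine and colon. A listed gene was in as few as 1 cell of the small intestine library, so an unlisted gene there may have had no UMI, but no value is given for it. In stomach, 7 of 316 Cd3-positive cells (2.22%, 0.895–4.51%) held 125 UMIs, a level of 128 CPM (106–152). In cecum, 7 of 3473 cells (0.202%) held 14 UMIs, or 1.997 CPM (1.09–3.35). None of 95 stomach and 586 cecum B-like cells had a UMI, which allows shares of up to 3.16% and 0.512%.

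The 7 stomach cells held 78, 17, 12, 7, 6, 4 and 1 Il17a UMIs. A single cell thus carried most of the stomach sum, and 6 of the 7 had at least 4 UMIs. That cell was of ordinary depth, with 2675 UMIs, 25 of them Cd3 and 15 Trdc. Without it the stomach level was 48.1 CPM. The 7 cecum cells held 3, 3, 3, 2, 1, 1 and 1 UMIs, and without the highest the level was 1.57 CPM. Stomach over cecum was 63.9-fold (36.7–120) or 6.00 on the log2 scale, and 4.93 on that scale with the highest cell of each library left out. After thinning to 1000 UMIs, Il17a was still seen in 7 stomach cells and in 3 cecum cells.

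The Il17a cells of both tissues carried Trac, Trbc1 or Trbc2 UMIs, in 7 of 7 stomach and 7 of 7 cecum cells. They differed in Trdc. All 7 stomach cells were Trdc-positive (100%, 59.0–100%), against 16.8% of all Cd3-positive stomach cells. In cecum 1 of 7 was Trdc-positive (14.3%, 0.361–57.9%), against 15.2%. None of the 7 stomach cells carried Cd4, the coreceptor of helper T cells, while 4 of the 7 cecum cells did. The stomach cells all lay in the ILC2-like cluster, and 5 of the 7 cecum cells in T-like clusters. The Trdc-positive cecum cell had 11631 UMIs, lay in the macrophage-like cluster and held 54 UMIs of the macrophage gene C1qa beside 30 of Cd3, 15 of Il22 and 3 of Il17f. Whether that barcode held more than 1 cell was not tested, and doublets were not filtered. Without it 0 of 6 cecum cells were Trdc-positive and 3 of 6 carried Cd4.

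The stomach Il17a cells carried most of the other genes as well. Counted by cell, Tmem176b was present in 7 of 7, Cd163l1, Maf, Blk and Tmem176a in 6 each, and Il1r1 and Actn2 in 3 each. The cell with 78 Il17a UMIs had all 8 genes, and the others had between 4 and 7. Cxcr6, a chemokine receptor of tissue-resident lymphocytes, and Ramp1, a subunit of the receptor for the neuropeptide CGRP, were in all 7. Of all 53 Trdc-positive stomach cells, 43 held Cxcr6 and 19 held Ramp1. Of the 7 cecum cells, Tmem176a and Cxcr6 were in 5 each, Il1r1, Maf and Tmem176b in 4 each, Cd163l1 and Actn2 in 1 each, and Blk and Ramp1 in none.

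**Figure D1:**
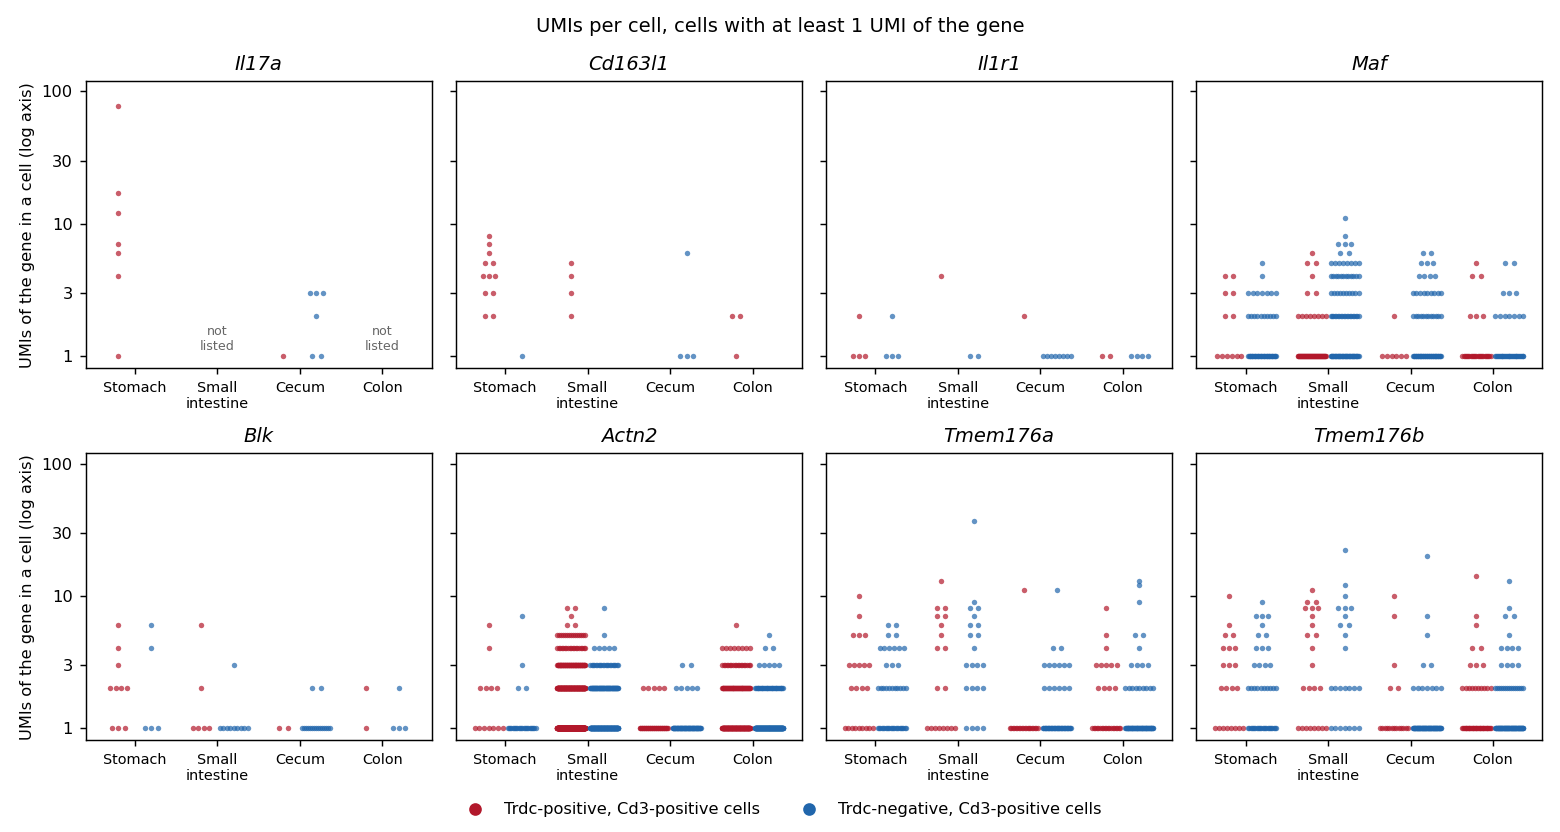
UMIs of each gene in each Cd3-positive cell that had at least 1, on a log axis, by tissue and with Trdc-positive cells (red) left of Trdc-negative cells (blue); each point is 1 cell. The 7 stomach cells with Il17a are all red and reach 78 UMIs, while 6 of the 7 cecum cells are blue and none exceeds 3.

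Cd163l1, the SCART1 gene, was sparse but found in all 4 libraries. Cd3-positive cells held 82 of its 88 UMIs (93.2%), in 24 cells. In stomach 54 UMIs lay in 13 cells, with the highest at 8, 7, 6 and 5 UMIs, a level of 55.1 CPM (41.4–71.9). In small intestine 14 UMIs lay in 4 cells (5, 4, 3 and 2), in cecum 9 in 4 cells (6, 1, 1 and 1) and in colon 5 in 3 cells (2, 2 and 1). The levels were 1.92 CPM (1.05–3.23) in small intestine, 1.28 (0.587–2.44) in cecum but 0.426 (0.138–0.995) in colon. Stomach thus stood 28.7-fold (15.7–55.9) above small intestine, 42.9-fold (21.0–98.9) above cecum and 129-fold (52.1–414) above colon. The 3 lower tissues overlapped in their intervals, apart from small intestine and colon. B-like cells had no Cd163l1 UMI in any of the 4 libraries, a limit of 3.16% of cells in stomach. All 54 stomach UMIs lay in the ILC2-like cluster, of which Cd163l1 is itself a leading gene.

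Among stomach Cd3-positive cells with Cd163l1, 12 of 13 were Trdc-positive (92.3%, 64.0–99.8%). In small intestine 4 of 4 and in colon 3 of 3 were, against 67.6% and 27.5% of all Cd3-positive cells there. In cecum 0 of 4 were. Every one of the 13 stomach cells also held Tmem176b, 12 held Tmem176a, 10 Maf, 10 Actn2, 9 Blk and 6 Il17a.

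Il1r1, the interleukin 1 receptor, was sparse everywhere. Cd3-positive cells held 32 of its 63 UMIs. In stomach 10 UMIs in 8 cells gave 10.2 CPM (4.89–18.8). In small intestine 6 UMIs in 3 cells (4, 1 and 1) gave 0.824 CPM, in cecum 10 in 9 cells gave 1.43, and in colon 6 in 6 cells gave 0.511. Only stomach and cecum together reached the 20 UMIs set for a ratio, 7.15-fold (2.67–19.2) higher in stomach. Outside stomach the level was not above that of B-like cells (10.8 CPM in small intestine, 3.12 in cecum, 2.61 in colon), so no expression is read from the level alone there. The B-like values rested on 2, 3 and 1 UMIs. By cell, 4 of the 9 cecum cells with Il1r1 were among the 7 Il17a cells of that tissue. All 8 stomach cells with Il1r1 also held Actn2 and Tmem176b.

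Maf, the transcription factor, was lower at each step from stomach to colon. It was in 70 of 316 stomach cells (22.2%), 177 of 2538 small intestinal (6.97%), 81 of 3473 cecal (2.33%) and 76 of 3384 colonic cells (2.25%). The levels were 115 CPM (95.02–139), 49.2 (44.2–54.5), 20.8 (17.6–24.5) and 9.38 (7.71–11.3) in that order. Each tissue was above the next beyond counting error: stomach was 2.34-fold (1.88–2.90) above small intestine, small intestine 2.36-fold above cecum and cecum 2.22-fold above colon. No cell dominated, with the highest at 5, 11, 6 and 5 UMIs in that order. In B-like cells Maf stood at 15.98, 16.1, 20.8 and 23.5 CPM, so cecum and colon were not above that background. In T-like Cd3-positive cells alone the order was the same, at 100, 49.4, 19.3 and 8.57 CPM. Macrophage-like cells carried Maf too, with 119.9 CPM (stomach) and 207 CPM (small intestine).

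Blk, the Src family kinase, belonged mainly to B-like cells, and T-like Cd3-positive cells held almost none of it. Only 90 of its 484 UMIs (18.6%) lay in Cd3-positive cells. Cd3-positive cells stood at 37.8 CPM (26.6–52.0; 37 UMIs in 15 cells) in stomach, 3.30 (24 UMIs in 16 cells) in small intestine, 2.995 (21 in 19) in cecum and 0.682 (8 in 6) in colon. B-like cells stood at 248 CPM (189.9–318), 172, 195 and 263 CPM in the same tissues. Stomach Cd3-positive cells were 11.5-fold (6.67–20.01) above small intestine, 12.6-fold above cecum and 55.4-fold (25.4–138) above colon. In stomach 28 of the 37 UMIs (75.7%) lay in the 25 Cd3-positive cells of the ILC2-like cluster, and 8 in 3 cells of the B-like cluster. T-like Cd3-positive cells held 0 Blk UMIs in stomach, cecum and colon and 1 in small intestine. In small intestine 11 of the 24 UMIs came from an unnamed cluster led by B cell genes, and 6 more from 1 Trdc-positive cell.

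Actn2, alpha-actinin 2, had a pattern of its own. Cd3-positive cells held 2688 of its 2709 UMIs (99.2%), and small intestine led. There 1763 UMIs lay in 1115 of 2538 cells (43.9%), of which 687 had 1 UMI, 289 had 2 and 139 had 3 or more. The levels were 64.3 CPM (49.4–82.2) in stomach, 242 (231–254) in small intestine, 21.0 (17.7–24.6) in cecum but 60.9 (56.6–65.6) in colon. Stomach was at 0.265-fold (0.203–0.341) of small intestine. Small intestine was 11.6-fold (9.76–13.8) above cecum and 3.97-fold (3.64–4.34) above colon. Stomach over colon was 1.05-fold (0.802–1.37), no difference beyond counting error. In T-like Cd3-positive cells Actn2 stood at 48.2 CPM in stomach and 61.9 CPM in colon, and over all cells of T-like clusters, whatever their Cd3 count, the ratio was -0.64 on the log2 scale. After thinning to 1000 UMIs Actn2 was seen in 6.33%, 21.1%, 2.22% and 5.86% of cells from stomach to colon. No macrophage-like cell of any library carried a UMI, which among the 189 of stomach allows up to 1.59% of cells.

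Tmem176a and Tmem176b had the same order of tissues in Cd3-positive cells and were highest in stomach. Tmem176a stood at 167 CPM (143–195) in stomach, 26.5 (22.9–30.5) in small intestine, 18.3 in cecum with 17.1 in colon. Tmem176b stood at 181 CPM (155–209), 29.7, 24.1 and 23.9. Stomach was 6.31-fold (5.09–7.81) above small intestine for Tmem176a and 6.09-fold for Tmem176b, and between 7.49-fold and 9.82-fold above cecum and colon for either gene. In stomach each was in 70 cells, and 54 of those (77.1% of each) held both. In small intestine 29 cells held both, 70.7% of the Tmem176a and 59.2% of the Tmem176b cells. The shared cells were fewer in cecum (31 cells, 36.9% and 28.2%) and colon (56 cells, 49.6% and 34.2%). The small intestinal values rested on few cells: 41 of 2538 had Tmem176a, and 1 of them held 37 of the 193 UMIs (19.2%).

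Cells outside T-like clusters held most of these UMIs in stomach and small intestine. Of the 164 Tmem176a UMIs in stomach Cd3-positive cells, 76 (46.3%) lay in 25 cells of the ILC2-like cluster, 47 (28.7%) in the NK/ILC1-like cluster and 19 (11.6%) in T-like clusters. Of the 193 in small intestine, 163 (84.5%) lay in 27 Cd3-positive barcodes of the plasma-like cluster and 9 in T-like clusters. In cecum and colon T-like clusters held 64.8% and 62.0%. Among T-like Cd3-positive cells Tmem176a stood at 35.2 CPM (21.2–55.0) in stomach, 1.41 (0.645–2.68) in small intestine, 12.6 (10.0–15.6) in cecum with 10.95 (9.11–13.1) in colon. Small intestine was then the lowest tissue, while over all Cd3-positive cells it was 1.45-fold above cecum. Over all cells of T-like clusters, whatever their Cd3 count, small intestine was at -3.21 on the log2 scale over cecum. Tmem176b in T-like cells ran the same way, at 24.1, 2.51, 16.2 and 16.3 CPM. The stomach T-like value was not above that of stomach B-like cells, 28.0 CPM (11.3–57.6) for either gene.

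The ratios of stomach over the other tissues were then counted by gene, as a description. A ratio needed the gene to be listed in both libraries with at least 20 UMIs in all, and 2-fold was the limit for calling it higher or lower. Several genes reached 20 UMIs mainly through stomach, where they were high (Il17a on 125 UMIs against 14 in cecum, Cd163l1 on 54 with at most 14 in any other tissue, and Blk on 37 against 8 in colon), so the counts and medians are in part fixed by this minimum. Over small intestine, 5 of 6 genes were at least 2-fold higher in stomach and 1, Actn2, was lower; 8.92% of all 11284 genes were higher and 14.8% lower. Over cecum, 8 of 8 were higher, with 8.28% of 11156 genes. Over colon, 5 of 6 were higher, with 9.25% of 11818 genes. The median log2 ratios were 2.63, 3.05 and 3.46, and those of all genes -0.08, -0.16 and -0.11. These 3 comparisons share the stomach library and are not independent. Over all cells of T-like clusters, whatever their Cd3 count (229 in stomach), the counts were 2, 3 and 3. Only Maf, Actn2 and the Tmem176 pair reached 20 UMIs there, and Maf was at 0.84 on the log2 scale over small intestine. Il17a, Cd163l1, Blk and Il1r1 had no UMI in the 202 stomach T-like cells that were Cd3-positive, a limit of 1.49% of cells for each.

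Between the other tissues fewer genes differed. Small intestine was at least 2-fold above cecum for 2 of 6 (Maf and Actn2; 7.48% of all genes) and lower for 0 (6.54%) and above colon for 3 of 5 (Maf, Blk and Actn2; 6.15%) and lower for 0 (6.12%). Cecum was above colon for 2 of 5 (Maf and Blk; 2.40%) and lower for Actn2 alone (4.27% of all genes), at 0.344-fold (0.286–0.411). T-like Cd3-positive cells held 0 Blk UMIs in cecum and colon and 1 in small intestine, so the Blk ratios reflect barcodes of other clusters. The Maf levels of cecum and colon were not above those of B-like cells.

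A list of 29 further type 17 genes, from transcription factors to receptor segments, was counted under the same minimum and with the same limit on what it shows. Of the 18 that could be compared, 14 were at least 2-fold higher in stomach than in small intestine and 3 were lower (median log2 ratio 2.28), where 8.92% of all genes were higher and 14.8% lower. Over cecum 14 of 19 were higher and 2 lower (median 2.37), with 8.28% and 14.4% of all genes. Over colon 15 of 18 were higher and 2 lower (median 2.52), with 9.25% and 13.6% of all genes. Ramp1 was 21.5-fold, the interleukin 18 receptor gene Il18r1 13.2-fold and Cxcr6 3.21-fold higher in stomach than in small intestine. Stat3, which relays interleukin 23 signals, was level at 1.009-fold. Lower in stomach were Ahr, the aryl hydrocarbon receptor (0.242-fold), the gamma chain constant region Tcrg-C1 (0.233-fold) and the potassium channel gene Kcnk1 (0.338-fold). Of the 11 type 1 genes, cytotoxic and interferon gamma related, 3 were higher and 3 lower over small intestine, with a median of 0.32, beside the 8.92% and 14.8% of all genes.

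**Figure D2:**
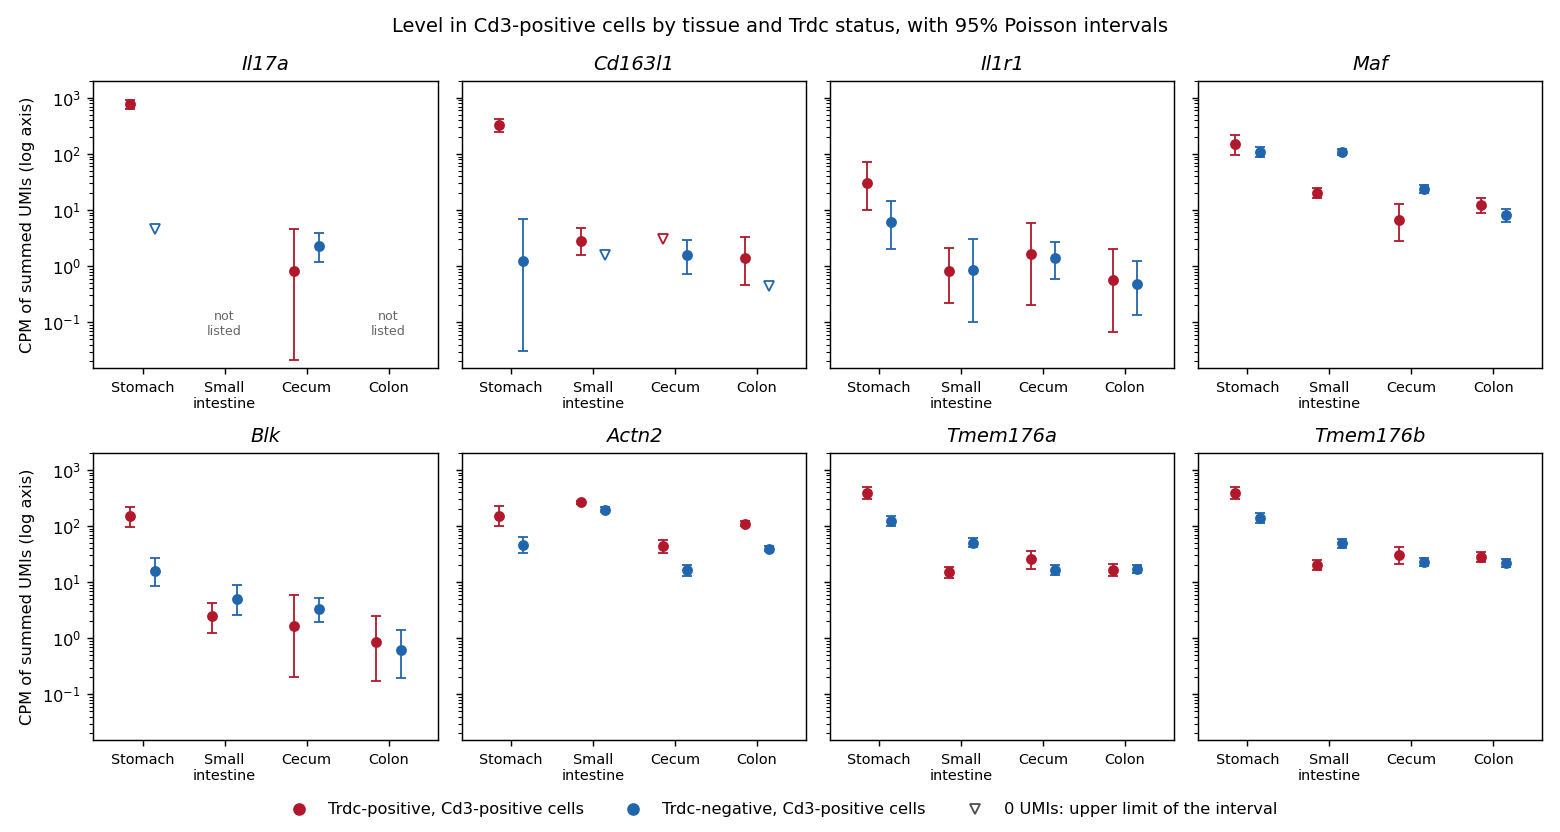
CPM of each gene (log axis) in Trdc-positive (red, left) and Trdc-negative (blue, right) Cd3-positive cells of each tissue, with 95% Poisson intervals; open triangles mark the upper limit where no UMI was found. In stomach Il17a stood at 771 CPM in Trdc-positive cells with no UMI in Trdc-negative cells, while Actn2 was higher in the Trdc-positive cells of every tissue.

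The next comparison asked how the genes follow Trdc status. Over 8 sums, Trdc-positive and Trdc-negative cells of each of the 4 libraries with library as a block, edgeR's quasi-likelihood test called 98 of 10686 genes higher (0.917%) and 115 lower (1.08%) in Trdc-positive cells at a Benjamini-Hochberg adjusted p of 0.05. Actn2 was the 1 member called, higher by 0.99 on the log2 scale (SE 0.19, adjusted p 0.0195) and higher in 4 of 4 libraries. The call was lost without the stomach library (0.95, adjusted p 0.0591) and without colon (0.78, adjusted p 0.267). Actn2 in Trdc-positive cells stood at 154, 264, 43.6 and 110 CPM from stomach to colon, against 46.5, 196, 16.2 and 39.6 CPM in Trdc-negative cells. The ratios were 3.32 (1.92–5.64), 1.35 (1.21–1.502), 2.69 (1.88–3.81) and 2.78 (2.39–3.23), smallest in small intestine.

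The other 3 genes that passed the filter on low counts did not pass the test: Maf at -1.25 (SE 0.45, adjusted p 0.253 by edgeR), Tmem176a at -0.05 (SE 0.41, adjusted p 0.999) and Tmem176b at 0.13 (SE 0.33, adjusted p 0.962). With this filter and over all Cd3-positive cells, no member was called lower by edgeR or by DESeq2. At an unadjusted p under 0.05 edgeR had 1 lower, Maf, and DESeq2 had 0. Over all cells of T-like clusters Maf passed, at -1.81 (adjusted p 0.00164), and without the small intestine library it was at -0.04. Il17a, Cd163l1, Il1r1 and Blk did not pass the filter. In a fit of all genes without it, Il17a was at 4.88 (SE 0.722, adjusted p 4.22e-06) and Cd163l1 at 4.25 (SE 0.712, adjusted p 4.14e-05). Il17a entered that fit as 0 in small intestine and colon, where it was not listed. Its Trdc-positive and Trdc-negative UMIs were 125 and 0 in stomach and 1 and 13 in cecum. The SEs of Maf, Actn2, Tmem176a and Tmem176b were smaller in that fit than with the filter (0.262 against 0.45 for Maf). In the same fit without the stomach library Il17a was at -1.26 (adjusted p 0.889) and Cd163l1 at 1.82 (adjusted p 0.577), so both calls rested on stomach. Maf was called lower by edgeR without the filter, at -1.25 (SE 0.262, adjusted p 0.00132). Without both filter and stomach library Maf was at -1.54 (adjusted p 0.00618). Whether Maf was called thus differed with the filter and with the set of cells used.

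Within libraries, the 4 genes that did not pass the filter were higher in Trdc-positive stomach cells, and none was lower beyond counting error in any tissue. Il17a had 125 UMIs in Trdc-positive and 0 in Trdc-negative stomach cells, at least 210-fold higher with 3 counts over the 263 Trdc-negative cells as the floor. In cecum it had 1 UMI in Trdc-positive and 13 in Trdc-negative cells, a ratio of 0.367 (0.00864–2.44). Cd163l1 had 53 UMIs in Trdc-positive and 1 in Trdc-negative stomach cells (267-fold, 45.9–10750). In Trdc-positive and Trdc-negative cells it had 14 and 0 UMIs in small intestine, 0 and 9 in cecum (a ratio of at most 2.42) and 5 and 0 in colon. Blk was 9.31-fold (4.56–19.9) higher in Trdc-positive stomach cells, at 148 CPM and 15.9 CPM in Trdc-negative cells, and its intervals included 1 in the other tissues. Il1r1 was 5.04-fold (1.16–21.9) higher in Trdc-positive stomach cells, on 5 UMIs in each set.

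Maf and the Tmem176 pair turned direction between tissues. Maf stood at 148 CPM in Trdc-positive and 109 CPM in Trdc-negative stomach cells (1.36-fold, 0.828–2.16). In small intestine it stood at 20.2 and 110 CPM (0.184-fold, 0.145–0.233), in cecum at 6.58 and 23.8 CPM (0.277-fold, 0.117–0.560) and in colon at 12.4 and 8.07 CPM (1.54-fold, 1.02–2.28). B-like cells stood at 20.8 CPM in cecum and 23.5 CPM in colon, so the colon levels and the Trdc-positive cecum level were below that background and the other cecum level near it. Tmem176a stood at 395 CPM in Trdc-positive and 122 CPM in Trdc-negative stomach cells (3.23-fold, 2.32–4.46), and at 15.1 and 50.3 CPM in small intestine (0.299-fold, 0.221–0.404). Its intervals included 1 in cecum and colon. Tmem176b ran alike, at 2.79-fold (2.02–3.82) in stomach and 0.407-fold (0.309–0.537) in small intestine, with 28.4 and 21.9 CPM in colon (1.30-fold, 1.007–1.67). The small intestinal values of the pair were carried by Cd3-positive barcodes of the plasma-like cluster, and the part of those barcodes in the ratios was not tested.

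**Figure D3:**
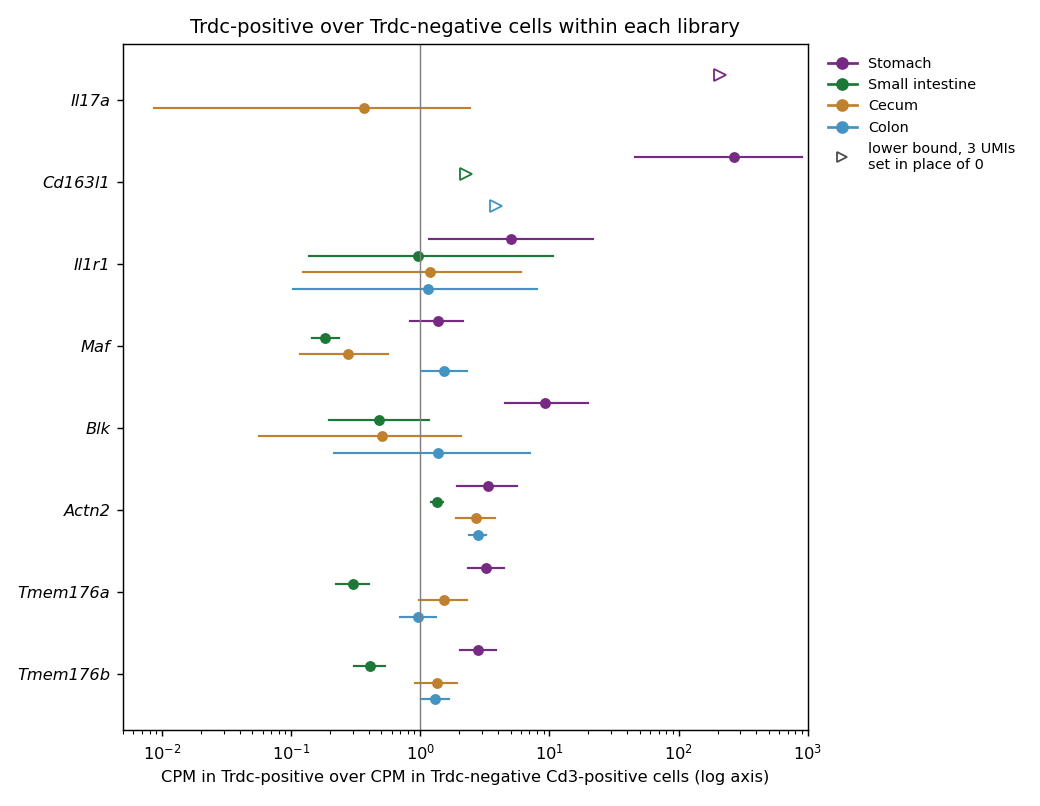
CPM in Trdc-positive over Trdc-negative Cd3-positive cells for each gene and library (log axis) with 95% intervals. Open arrows mark the ratio with 3 UMIs in place of 0. The stomach Cd163l1 interval runs past the axis to 10750, and Cd163l1 in cecum (0 against 9 UMIs) has no point. Actn2 lies above 1 in all 4 libraries, and Maf, Tmem176a and Tmem176b lie on both sides.

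Of the 29 further type 17 genes, 15 were tested; 2 were higher in Trdc-positive cells by edgeR, Tcrg-C1 (2.35, SE 0.14, adjusted p 9.64e-06) and Cxcr6 (0.60, SE 0.11, adjusted p 0.0143), and 0 lower, with 3 lower at an unadjusted p under 0.05 and 0 called lower by DESeq2. Their median was 0.03 and that of all genes 0. Of the 11 type 1 genes 4 were higher, among them the granzyme genes Gzma and Gzmb, with a median of 0.26. In stomach alone Ramp1 had 67 UMIs in Trdc-positive and 115 in Trdc-negative cells (2.94-fold, 2.14–4.01). Sox13, a transcription factor of gamma delta T cells, had 6 and 0. The delta variable segment gene Trdv4 had 10 and 3 (16.8-fold, 4.33–95.1).

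The Il17a and Cd163l1 transcripts of stomach lay almost wholly in 13 cells. The ILC2-like cluster held 76 stomach cells and was led by Rora, Areg, Il13 and Cd163l1, so levels of its leading genes are a description. Of these cells 13 were Cd3-positive and Trdc-positive, 12 Cd3-positive and Trdc-negative, and 51 had under 2 Cd3 UMIs. The 13 held all 125 Il17a UMIs of stomach Cd3-positive cells (7 cells, 4061 CPM) and 53 of the 54 of Cd163l1 (12 cells, 1722 CPM). They also held 22 of Blk (9 cells), 19 of Maf (9 cells), 18 of Actn2 (9 cells), 43 of Tmem176a (12 cells), 52 of Tmem176b (13 cells) and 5 of Il1r1 (4 cells). Of the 13, Sox13 was in 6, Cxcr6 in 13, Ramp1 in 12, Trdv4 in 8 and the gamma variable segment Tcrg-V6 in 2. Il17f and Il22, the sister cytokines, had no UMI there, nor had the type 2 genes Il13, Il5, Areg and Il1rl1. With 13 cells this allows up to 23.1% of cells for each of these genes. Gata3, a type 2 transcription factor, was not among the genes without a UMI in the 13 cells.

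The neighbouring cells in that cluster differed from them in Il17a and Cd163l1 but shared others of the 8 genes. Of the 25 Cd3-positive cells of the cluster, 20 carried 3 or more of the 8 genes, and 13 of those 20 were Trdc-positive. The 12 Trdc-negative Cd3-positive cells held 0 UMIs of Il17a, 1 of Cd163l1 and 6 of Blk, with 12 of Maf in 9 cells, 33 of Tmem176a in 9 and 46 of Gata3, the type 2 transcription factor, in 6. The 51 cells with under 2 Cd3 UMIs held 0 of Il17a, Cd163l1 and Blk, 33 of Maf in 17 cells and 256 of Gata3 in 48. Tmem176a was in 27 of these 51 and Tmem176b in 31, at 448 and 614 CPM, so the pair and Maf were also found away from the Il17a cells. The 23 Trdc-positive stomach cells in T-like clusters held 0 UMIs of Il17a, Cd163l1, Blk and Il1r1. Of these 23, 22 held Nkg7 and 10 held Ifng, type 1 genes. Both were found beyond these cells, in 40 and 24 of all 53 Trdc-positive stomach cells. Neither was among the genes without a UMI in the 13 Trdc-positive cells of the ILC2-like cluster. Of the other type 1 genes, Tbx21, Eomes, Klrd1 and Gzma had none in the 13, and Eomes had none in the 23. In small intestine a single Cd3-positive, Trdc-positive cell lay in this cluster, with 4 UMIs of Cd163l1, 6 of Blk, 4 of Il1r1 and 11 of Trdc. In colon 2 such cells held 4 UMIs of Cd163l1, 9 of Maf and 11 of Tmem176a.

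Cells that carried several of the 8 genes at once were mostly stomach cells when counted as a share of Cd3-positive cells. In stomach 31 of 316 Cd3-positive cells (9.81%, 6.76–13.6%) carried 3 or more, against 21 of 2538 in small intestine (0.827%), 11 of 3473 in cecum (0.317%) and 16 of 3384 in colon (0.473%). Of the Trdc-positive stomach cells 13 of 53 (24.5%, 13.8–38.3%) carried 3 or more, and all of those carried at least 4. Of the Trdc-negative, 18 of 263 (6.84%) did. The 13 Trdc-positive ones were all in the ILC2-like cluster, where 20 Cd3-positive cells of either Trdc status carried 3 or more. In small intestine 13 of the 21 were barcodes of the plasma-like cluster with a median of 19076 UMIs, and among T-like clusters and the Cd3-positive cells of the ILC2-like cluster 0.124% carried 3 or more. After thinning to 1000 UMIs the shares were 5.38%, 0.0394%, 0.0878% and 0.118% from stomach to colon.

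**Figure D4:**
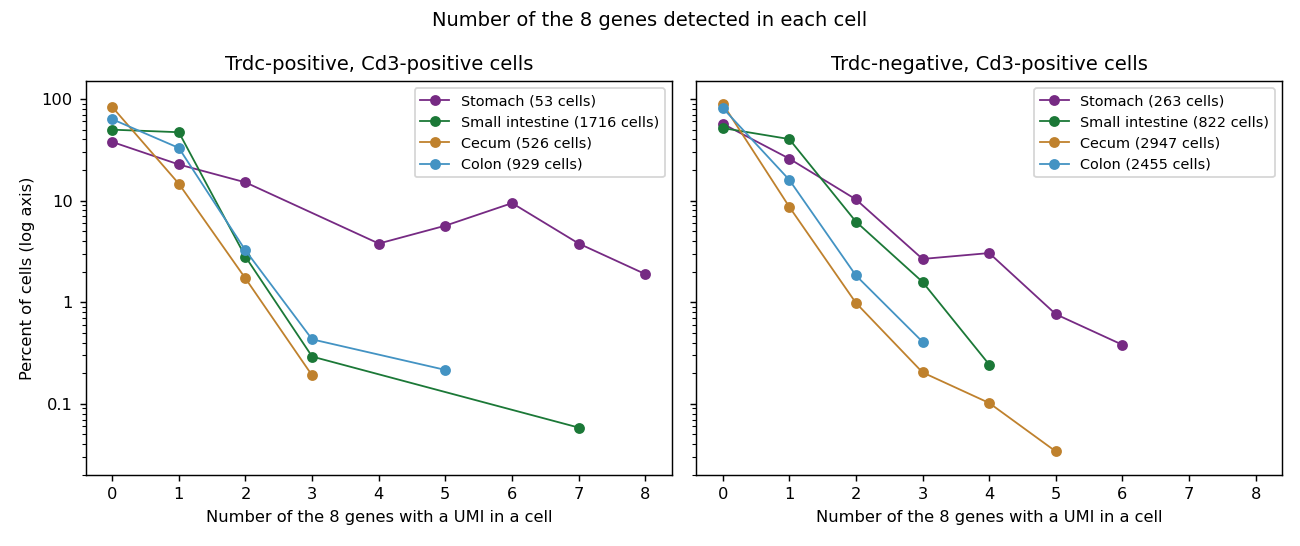
Percent of Trdc-positive (left) and Trdc-negative (right) Cd3-positive cells of each tissue by the number of the 8 genes with a UMI in the cell (log axis; numbers with no cell have no point). The stomach Trdc-positive line has no cell at 3 and 13 of 53 cells between 4 and 8.

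Macrophage-like cells held the largest share of Tmem176a and Tmem176b UMIs of any class in the stomach library. Their cluster carried the macrophage markers, and classes here come from clusters of the same transcripts, so levels are a description with no test. In stomach 182 of 189 macrophage-like cells had Tmem176a, at 1151 CPM (1082–1224), and 178 had Tmem176b, at 1367 CPM (1291–1447). These cells held 47.3% and 44.5% of all UMIs of the pair in the stomach library, and Cd3-positive cells 7.62% and 6.52%. Macrophage-like cells stood 7.05-fold (5.96–8.396) and 8.07-fold (6.84–9.56) above stomach Cd3-positive cells. With no Cd3 UMI allowed in the macrophage-like cells the levels were 1171 and 1380 CPM. By level the ILC2-like class of stomach came next, at 723 CPM (604–859) of Tmem176a and 846 CPM (716–991) of Tmem176b over its 76 cells. The 25 Cd3-positive cells within it stood at 1283 and 1317 CPM, beside the 1151 and 1367 CPM of macrophage-like cells.

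The other tissues held few macrophage-like cells. Tmem176a stood at 567 CPM in 26 cells of small intestine, 572 in 8 of cecum and 816 in 29 of colon, which was 21.4-fold (15.4–29.2), 32.3-fold and 56.5-fold (45.1–70.7) above Cd3-positive cells. Tmem176b stood at 960 CPM, 1219 CPM and 1064 CPM. The ratio was smallest in stomach, where Cd3-positive cells themselves were highest. Macrophage-like cells were not the highest class everywhere. The ILC2-like class, with 4 cells each in cecum and colon, stood at 1703 and 1664 CPM of Tmem176a and 1596 and 1408 CPM of Tmem176b. In small intestine its 8 cells were lower than macrophage-like cells, at 333 and 388 CPM.

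Dendritic-like cells varied by tissue and kind. Conventional dendritic-like cells had Tmem176a at 556 CPM in stomach (41 of 58 cells; 3.42-fold above Cd3-positive cells), 30.9 in small intestine (4 of 42 cells; 1.17-fold, 0.497–2.35), 108 in cecum and 377 in colon (5 of 9 cells). Tmem176b stood at 722, 23.2, 227 and 328 CPM. In small intestine they were not above all Cd3-positive cells for either gene, but most Tmem176a UMIs of those cells lay in plasma-like barcodes. Against T-like Cd3-positive cells of small intestine, conventional dendritic-like cells were 21.9-fold (7.36–64.0) higher for Tmem176a and 9.25-fold (2.96–24.9) higher for Tmem176b. Macrophage-like cells there were 402-fold (196–928) and 383-fold (223–699) higher than the same T-like cells. Plasmacytoid dendritic-like cells of small intestine had 114 CPM of Tmem176a (18 of 216 cells) and 169.8 CPM of Tmem176b (28 cells), 4.44-fold and 5.84-fold above Cd3-positive cells.

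Lymphoid and plasma-like classes carried the pair as well. NK/ILC1-like cells of stomach had 359 CPM of Tmem176a (203 of 412 cells) and 397 CPM of Tmem176b (234 cells). In small intestine 206 plasma-like cells held 1564 Tmem176a UMIs, 85.1% of that library's, at 579 CPM, and 77.3% of its Tmem176b UMIs, at 559 CPM. Mast-like cells, the commonest of stomach, had 7.83 and 11.4 CPM. Both values lay below those of T-like Cd3-positive stomach cells (35.2 and 24.1 CPM).

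**Figure D5:**
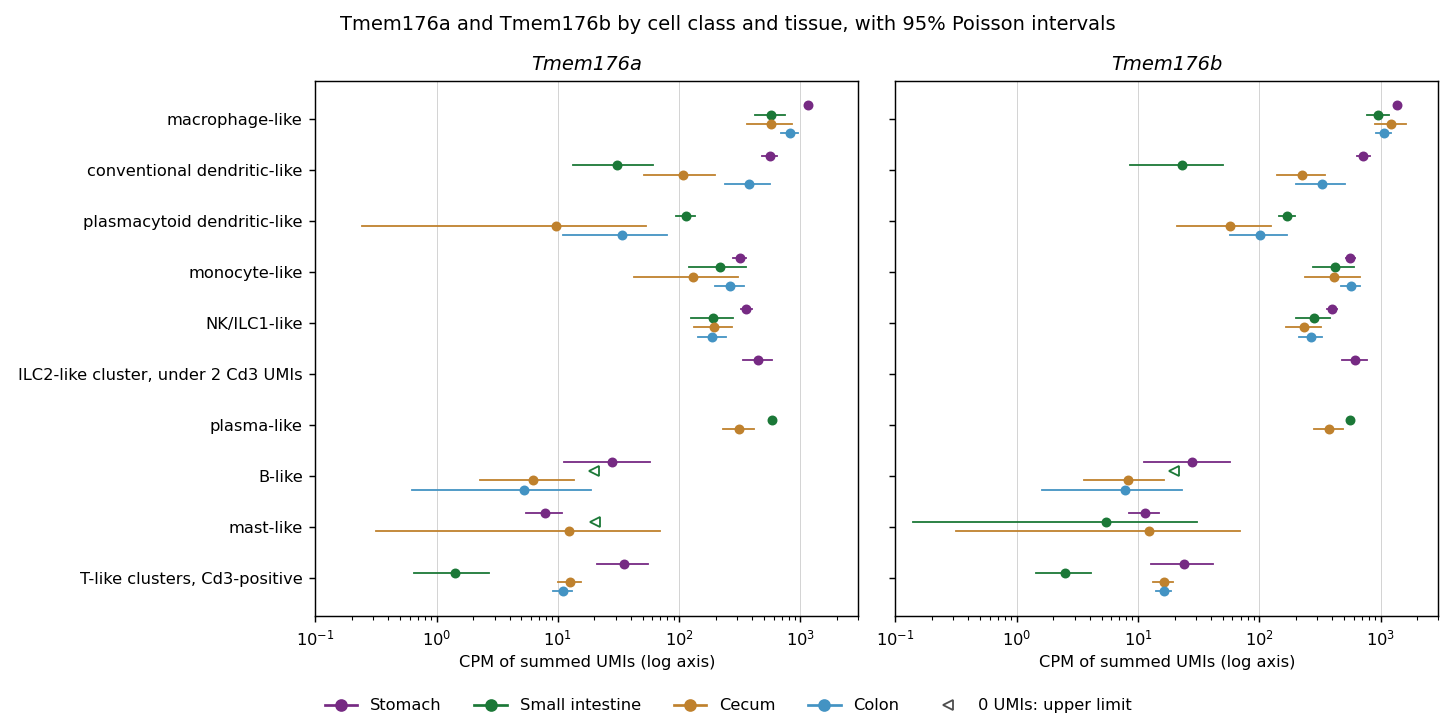
Tmem176a (left) and Tmem176b (right) in CPM (log axis) by cell class and tissue with 95% Poisson intervals; groups under 8 cells are not drawn. Macrophage-like cells lie between 567 and 1367 CPM in the 4 tissues, and T-like Cd3-positive cells between 1.41 and 35.2 CPM, lowest in small intestine.

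Across the 8 sums of tissue and Trdc status, each gene was set against the mean of the other 7 on a log2(CPM + 10) scale, as a description over sums that share libraries. Pearson's r was 0.983 for Blk, 0.962 for Il1r1, 0.926 for Tmem176a, 0.925 for Tmem176b, 0.913 for Cd163l1, 0.891 for Il17a, 0.722 for Maf and 0.285 for Actn2. Actn2 had its highest level in small intestine, and each of the other 7 had its highest in stomach. The 10 genes most like the mean of all 8 were Neb (0.985), Zbtb14, Bik, Pag1, Elp3, Asb8, Snx12, Zfp142, Gpn2 and Slc35c2 (0.974). Neb, encoding the muscle protein nebulin, stood at 37.0 CPM in Trdc-positive and 11.0 CPM in Trdc-negative stomach cells and at 6.72 CPM or less in the other tissues. Counts were low, with 122 UMIs of Neb and 81 of Zbtb14 in all. Zbtb14 in Trdc-positive stomach cells, at 12.3 CPM, was under the 18.5 CPM that 3 counts give there. Elp3 ranged only from 33.7 to 49.3 CPM. Shared expression of these genes within cells was not tested.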

How the data were processed

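The values used were UMI counts, whole numbers by gene symbol and barcode, taken as deposited. The 10x 3′ v2 kit was used per the labels; per the submitters' processing notes, Cell Ranger, Seurat 3.0.0 and GRCm38 (mm10) were used. Gene filters are not given in the sources used here; each matrix listed its own 14172 to 15320 symbols. The stomach, small intestine, cecum and colon matrices summed to 9022713, 11750691, 8568438 and 12988676 UMIs.

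A barcode needed at least 200 listed genes (5 of 14378 were removed); doublets were not filtered. Cells were clustered with scanpy 1.11.5 (counts scaled to 10000, 2000 variable genes, 30 components, 15 neighbours, Leiden resolution 1.0). Clusters were T-like where at least 50% of cells had a Cd3 UMI and otherwise named from at least 3 markers at least 3-fold up in at least 10% of cells; clusters led by at least 3 markers of another class stayed unnamed, a rule added after seeing them. Ratios carry exact conditional binomial intervals and shares exact Clopper-Pearson intervals at 95%; these and the limits for a count of 0 (3 counts) reflect counting error alone. No p-value was computed between tissues, each being 1 library.

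Trdc status was tested on summed counts with edgeR 4.0.16 in R 4.3.3 (TMM, filterByExpr, quasi-likelihood, library as block, Trdc left out, threshold 0.05), with the SE taken as the log2 fold change over the root of F; the 4 libraries were the samples and nothing says that they came from separate animals. A symbol not listed in a library entered this fit as 0. The script was tested on simulated data, and DESeq2 1.42.0 was an alternative. The named genes were the 8 genes, the 29 type 17 and 11 type 1 genes, and the 10 most like the mean of the 8 with at least 50 UMIs, passing over ribosomal, mitochondrial, immunoglobulin, hemoglobin, Y-linked and unnamed transcripts. A gene of the type 17 list is counted but not reported by name here. Members and lists were chosen with earlier results of these data known. Start regions are RefSeq's, on GRCm38.p6.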

Additional observations from a re-analysis of the deposited data

Results flagged for a closer look

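The genes Maf, Tmem176a and Tmem176b had effects of Trdc status that pointed in opposite directions in different tissues, each with an interval that excluded 1; the difference between tissues was itself not tested. The ratio of Maf in Trdc-positive over Trdc-negative cells was 1.54 in colon, but 0.184 in small intestine and 0.277 in cecum. The colon levels behind it, 12.4 and 8.07 CPM, lay below the 23.5 CPM of B-like cells there. Those of cecum, 6.58 and 23.8 CPM, lay below or near the 20.8 CPM of B-like cells. No expression is read from these levels alone. By cell, Maf reached 6 UMIs in cecum and 5 in colon Cd3-positive cells, against 2 and 1 in B-like cells. The ratio of Tmem176a was 3.23 in stomach and 0.299 in small intestine. That of Tmem176b was 2.79 in stomach and 1.30 in colon, but 0.407 in small intestine. In small intestine 27 Cd3-positive barcodes of the plasma-like cluster held 84.5% of the Tmem176a and 80.6% of the Tmem176b UMIs. T-like Cd3-positive cells there held 9 and 16 UMIs. The part of the plasma-like barcodes in these ratios was not tested.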

How the results depend on the processing

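With 1 library per tissue every difference between tissues is also one between libraries, and sparse genes limit what depth can show: only Maf, Actn2 and the Tmem176 pair passed the filter on low counts. The number of the 8 genes at least 2-fold higher in stomach than in small intestine, cecum and colon (5, 8 and 5) was 2, 3 and 3 over all cells of T-like clusters, whatever their Cd3 count, and 2, 3 and 2 outside clusters named as another class, where the ILC2-like cluster that holds the stomach Il17a cells is left out by construction. With that cluster's Cd3-positive cells added back, an alternative chosen after seeing the data, it was 5, 7 and 5. Macrophage-like over Cd3-positive cells in stomach moved to 2.15 for Tmem176a and 2.42 for Tmem176b on the log2 scale (from 2.82 and 3.01 for the clusters) when single cells with at least 3 markers and under 2 Cd3 UMIs were taken. The share of cells with 3 or more of the genes was 5.38%, 0.0394%, 0.0878% and 0.118% after thinning, and 0.124% in small intestine for T-like and ILC2-like clusters; thinning removes UMIs by construction.

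Of genes called by Trdc status (98 higher, 115 lower), 173 were lower with at least 2 Trdc UMIs, 166 were higher over all cells of T-like clusters, 161 higher with the ILC2-like cluster's cells added, 180 lower without the highest cell, 68 lower with DESeq2, and 256 higher and 352 lower with no filter; the cause was not tested. Leaving out 1 library at a time gave 12 to 133 higher and 19 to 108 lower; both lowest counts were without colon, and without cecum 54 were higher. With no replicate block, edgeR called 5 higher and 0 lower, with 61 and 107 at an unadjusted p under 0.05, and Actn2 was at 0.90 (adjusted p 1). For Actn2 the log2 fold change lay between 0.78 and 1.5 over all alternatives. No value called with all libraries and the filter changed sign under any alternative run; Il17a, called with no filter at 4.88, was at -1.26 with no filter and without the stomach library. Of the values of single genes, 414 moved by less than their counting interval or kept their call, 79 moved further, 3 lost and 2 gained a call.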
